A study of Mus musculus with 6 samples.

Results

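Clathrin, the epsins and the endocytic adaptors were followed through 10 genes taken by symbol, out of 35882 genes with a matched transcript: the clathrin heavy chain gene Cltc, the light chain genes Clta and Cltb, the epsin family genes Epn1, Epn2 and Clint1, the paralogous adaptors Picalm and Snap91, and Dnm1 and Amph of vesicle scission. Polyadenylated RNA was sequenced from the hippocampus of 3 WT and 3 Prmt9 knockout (KO) mice, all female, of strain B6J and 2 weeks old. The study compared littermates to find genes whose expression or splicing depends on PRMT9, an arginine methyltransferase whose substrate SF3B2 is a component of the U2 snRNP. Per the study's methods these were whole-body knockouts, derived from an allele with loxP sites around a coding exon, which a CMV-Cre line deleted in the germline.

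Clathrin triskelia of heavy and light chains assemble into the coat of vesicles that bud from the plasma membrane, the trans-Golgi network and endosomes. Adaptors with an ENTH domain (epsins) or an ANTH domain (PICALM and AP180, the product of Snap91) bind phosphoinositides, cargo and clathrin, and amphiphysin and dynamin act at the neck of the bud. In presynaptic terminals this machinery retrieves synaptic vesicle membrane, and neurons are known to splice additional coding exons into both light chains.

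The transcript segments on which the results turn lie within annotated exons of GRCm38. The first pair shows the alternative segments of the epsin family, with the segment in capitals and 18 bases of each neighbouring exon sequence in lower case. In Clint1 the choice between tandem 3′ splice sites (A3SS) adds or removes the 54 coding bases at chr11:45907840-45907893 on the forward strand. In Epn2 a 36-base coding cassette exon lies at chr11:61534578-61534613 on the reverse strand.
Clint1 54-base segment: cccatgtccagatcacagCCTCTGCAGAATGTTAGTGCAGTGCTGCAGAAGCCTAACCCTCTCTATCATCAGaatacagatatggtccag
Epn2 36-base exon: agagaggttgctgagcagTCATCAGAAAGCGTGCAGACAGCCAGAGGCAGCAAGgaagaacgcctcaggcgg

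The paralogs Picalm (chr7:90191141-90191155, forward strand) and Snap91 (chr9:86781705-86781719, reverse strand) each carry a 15-base A3SS segment in their coding sequence. These segments are shown because they can be aligned without a gap and are identical at 10 of 15 bases, marked in capitals.
Picalm 15-base segment: gcTTTGATGaacTAG
Snap91 15-base segment: tgTTTGATGgttTAG

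The neuronal exons of the light chains are also related between paralogs. The 54-base exons of Clta (chr4:44030215-44030268, forward strand) and Cltb (chr13:54597026-54597079, reverse strand) are identical at 37 of 54 bases, again in capitals, and Clta has a further 36-base exon (chr4:44031400-44031435), printed in capitals between 18 bases on each side.
Clta 54-base exon: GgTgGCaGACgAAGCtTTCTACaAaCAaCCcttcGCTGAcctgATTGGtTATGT
Cltb 54-base exon: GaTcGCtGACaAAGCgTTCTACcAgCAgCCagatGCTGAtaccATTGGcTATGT
Clta 36-base exon: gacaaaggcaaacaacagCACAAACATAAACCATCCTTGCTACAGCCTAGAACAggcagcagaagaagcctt

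In Dnm1, a 37-base exon near the 3′ end (chr2:32310451-32310487, reverse strand) holds 19 coding bases that run into a stop codon, in capitals. Dnm1-201, with the exon, has 851 codons before its stop, and Dnm1-214, without it, has 864.
Dnm1 37-base exon: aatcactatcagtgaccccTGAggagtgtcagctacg

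The 6 libraries held between 194098391 and 286771677 estimated counts, of which the 10 genes took 606982 to 970679. WT replicate 1 and KO replicate 1 stood apart from the other 4 mice: in a principal component analysis of gene counts, component 1 (68.0% of variance) scored 124.4 for the former, 24.9 for the latter and −39.6 to −33.8 for the rest. WT replicate 1 had 37.4% of its transcripts at 0, against 22.8% to 24.8% in the other libraries. These mice had less RNA of the oligodendrocyte lineage (6 markers, summed TPM of 1985 in WT replicate 1 and 1069 in KO replicate 1, against 7194 to 10306 in the others) and of neurons (4 pan-neuronal markers, 1165 and 1644 against 2245 to 2451). WT replicate 1 also had 7249 TPM of 4 choroid plexus markers, against 607 to 3327 in the other mice. Ttr made up 7157 TPM of this sum. Folr1 (74.5 TPM) was likewise highest in that mouse. Kl and Clic6 were not, at 7.44 and 10.7 TPM against 15.5 and 11.7 in KO replicate 3. The 5 markers of hippocampal excitatory neurons summed to 1704 to 2909 TPM in WT and 1791 to 2861 in KO, with none below 1 TPM, so the defining markers of the labelled tissue were present. In such bulk tissue, fewer cells of a type and less RNA per cell cannot be told apart. Prmt9 itself had 11.8, 15.2 and 14.96 TPM in WT and 3.93, 4.61 and 4.67 in KO, a log2 fold change of −1.71 (SE 0.10, edgeR quasi-likelihood test, adjusted p = 0.0325). The deleted gene thus missed the adjusted p limit of 0.01 used below, and its adjusted p ran from 1.49e-60 (DESeq2 Wald test) to 0.99997 (limma on log2(TPM + 1)) over the alternatives, so a count of 0 calls is no sign that levels were equal. TPM, a kallisto unit scaled to the library total, corrects for transcript length, so that levels of different genes may be compared.

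The clathrin and adaptor genes were abundant and none of the 10 passed edgeR's quasi-likelihood test (limits: adjusted p below 0.01, fold above 1.5), and none had an unadjusted p below 0.05. Over all 20298 genes tested, 0.0% passed the limits and 1.24% had an unadjusted p below 0.05. In none of the 10 did the TPM of the groups separate, which 6.67% of all genes did. The adjusted p was 0.9998 for each of the 10, and their log2 fold changes of KO over WT ran from −0.15 (SE 0.28, Clta) to 0.08 (SE 0.09, Picalm), with a median of −0.06 against −0.01 over all genes.

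The order of the WT levels was Dnm1, Epn1, Clta, Cltb, Cltc, Snap91, Amph, Epn2, Picalm and Clint1, from a mean of 689 ± 197 TPM down to 26.8 ± 5.25 TPM (SD, n = 3). The WT ranges of neighbours overlapped for Epn1 and Clta, Clta and Cltb, Snap91 and Amph, and Epn2 and Picalm. Within a mouse the order was firmer, since each gene lay above the next in 6 of 6 mice except for Epn1 over Clta and Epn2 over Picalm, which held in 4 of 6.

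**Figure D1:**
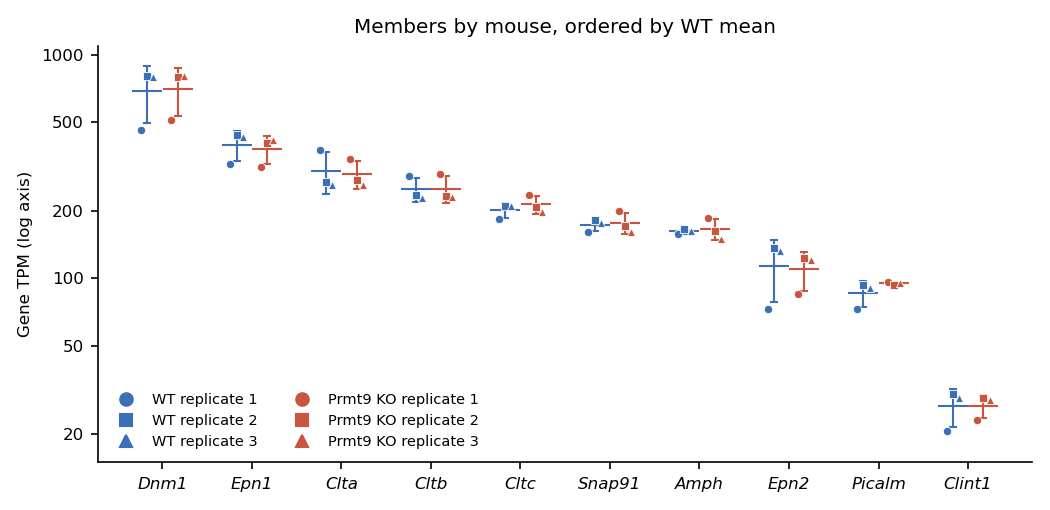
TPM of the 10 genes (log axis) in each mouse, ordered by WT mean; points are mice, horizontal bars the mean and error bars the SD of 3 mice. Dnm1 is the highest and Clint1 the lowest, and for Dnm1, Epn1, Epn2 and Clint1 both mice numbered 1 lie below the other 4.

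Among the coat subunits, Cltc, which encodes the heavy chain that forms the legs of the triskelion, had 183, 211 and 210 TPM in WT and 235, 209 and 197 in KO. Clta, light chain A, had 377, 270 and 262 TPM in WT and 341, 275 and 262 in KO. Cltb, light chain B, had 287, 237 and 229 TPM in WT and 291, 234 and 231 in KO. For both light chains the mice numbered 1 were the highest of all 6, in WT and in KO alike, and the remaining mice of the groups lay close together. Of the light chain TPM, Clta made up 0.545 ± 0.020 in WT and 0.537 ± 0.005 in KO (SD, n = 3). The summed light chains exceeded the heavy chain by a ratio of 3.62, 2.40 and 2.34 in WT and 2.69, 2.43 and 2.499 in KO, where the value of WT replicate 1 stood out. Against the full-length heavy chain transcripts Cltc-201 and Cltc-202 alone the ratio was 7.19, 3.34 and 3.18 in WT and 4.69, 3.39 and 3.58 in KO, and both mice numbered 1 were above the other 4.

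Of the adaptors, Epn1, an epsin of the plasma membrane, had 325, 436 and 427 TPM in WT and 316, 401 and 417 in KO. In edgeR's normalized counts (CPM) Epn1 was at 418, 431 and 424 in WT and 354, 410 and 416 in KO, without overlap, as were 7.01% of all genes on that scale. Epn2, the second epsin, had 73.0, 136 and 132 TPM in WT and 84.8, 123 and 121 in KO. Clint1, also called epsin R and active with clathrin at the trans-Golgi network and endosomes, had 20.8, 30.4 and 29.3 TPM in WT and 23.3, 29.1 and 28.5 in KO. In these 3 genes both mice numbered 1 were lower than the other 4 mice, as they were in Dnm1.

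Picalm, the widely expressed ANTH adaptor, had 73.1, 93.7 and 90.5 TPM in WT and 96.1, 93.7 and 95.1 in KO, and WT replicate 1 alone was low. Snap91, the neuronal adaptor AP180, had 162, 182 and 178 TPM in WT and 199, 172 and 162 in KO, with KO replicate 1 the highest. Snap91 exceeded Picalm in every mouse, by 2.21, 1.94 and 1.96 in WT and 2.07, 1.83 and 1.70 in KO. Dnm1, the neuronal dynamin that severs the bud, had 462, 807 and 799 TPM in WT and 508, 797 and 804 in KO. Amph, amphiphysin, which binds curved membrane and recruits dynamin, had 158, 166 and 164 TPM in WT and 186, 163 and 150 in KO. On the TPM scale, WT and KO overlapped for each of the 10 genes.

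A further 69 genes of clathrin traffic were read in the same fit. None was called, none had an unadjusted p below 0.05 and 1, Fnbp1l, had groups that did not overlap (24.6, 27.6 and 28.8 TPM in WT and 47.2, 31.1 and 30.9 in KO). Over all genes these shares were 0.0%, 1.24% and 6.67%, as given above. The median log2 fold change of these 69 genes was −0.03, with 23 above 0 and 46 below, where all genes tested had 9529 above and 10769 below. The medians were −0.02 for the 8 genes of the AP2 adaptor core, −0.05 for 14 genes of the early coat, −0.09 for 16 of curvature and scission, −0.03 for 8 of uncoating and −0.01 for 23 of the trans-Golgi and endosome coats. The 3 highest values were 0.34 (SE 0.22) for Fnbp1l, an F-BAR protein, 0.30 (SE 0.16) for Ap1g2, an AP1 gamma subunit, and 0.29 (SE 0.26) for Ston1, a stonin. The 3 lowest were −0.44 (SE 0.27) for Hgs, an ESCRT component that sorts ubiquitinated cargo, −0.27 (SE 0.22) for Trip10, another F-BAR protein, and −0.24 (SE 0.43) for Ap2s1, the small subunit of AP2. In TPM, Hgs had 43.0, 55.8 and 56.5 in WT and 51.4, 50.2 and 50.9 in KO, with means of 51.8 and 50.8. Without the mice numbered 1 these means were 56.2 and 50.6, so the size of the Hgs difference depended on the scale and on those mice. Among relatives of the 10 genes, the log2 fold changes were −0.10 for Dnm2, 0.03 for Dnm3, −0.13 for Epn3, −0.05 for Bin1, 0.20 for Hip1 and −0.06 for Hip1r.

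**Figure D2:**
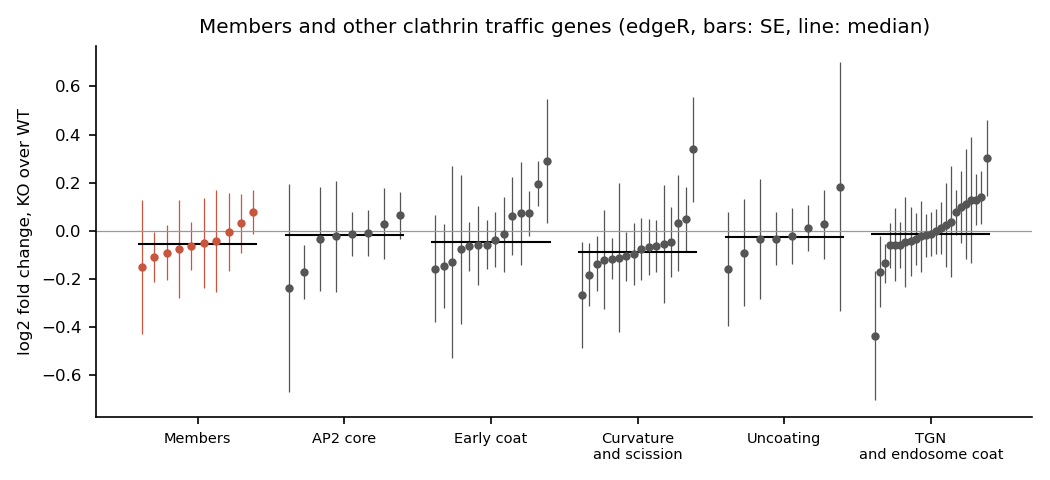
Log2 fold change of KO over WT (edgeR) for the 10 genes and for 69 other genes of clathrin traffic by role; points are genes, error bars the SE and black lines the medians. The values run from −0.44 to 0.34 and the medians of all groups lie within 0.1 of 0.

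Below the gene level, the annotation lists 86 transcripts for the 10 genes, 62 of them with a mean of at least 1 TPM, and 77 passed the filter on low counts. None of the 77 was called by edgeR's quasi-likelihood test on transcripts, as was the case for 0.0% of all transcripts. In 7 of the 77 (9.09%) the TPM of the groups did not overlap, against 7.5% of all 75554 transcripts tested. Of these 7, Epn2-201 and Amph-202 were lower in KO (2.60% of the 77, against 2.34% of all transcripts), and Clint1-201, Picalm-202, Picalm-209, Picalm-213 and Dnm1-212 were higher (6.49%, against 5.16%). An unadjusted p below 0.05 was found for 5 of the 77 (6.49%, against 1.61% of all): Epn2-201, Amph-202, Clint1-202, Picalm-201 and Picalm-213. The test of transcript usage, which asks whether the relative amounts of a gene's transcripts differ, called none of the 10 genes (edgeR's diffSpliceDGE, adjusted p of 1 for each), where 0.17% of all 13545 genes were called. None of the 10 had an unadjusted usage p below 0.05, against 1.73% of all genes.

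Splicing events built from the annotated transcripts numbered 50 in the 10 genes. These comprise cassette exons (SE), A3SS and alternative 5′ splice sites (A5SS), retained introns (RI) and mutually exclusive exons (MXE). Of the 50, 35 reached 1 TPM in each mouse with a mean share of 0.05 to 0.95 in a group, where the share is the TPM of the transcripts with the segment over that of the transcripts with or without it. With limits of 0.01 for limma's adjusted p and of 0.05 for the share difference, no event was called, nor was any among all 15741 events (0.0%). In 3 of the 35 (8.57%) the shares of the groups did not overlap, against 11.1% of all events, and 1 of the 35 (2.86%) had an unadjusted p below 0.05, against 3.35%. In 13 of the 35 (37.1%) the KO mouse differed from the WT mouse of the same number in 1 direction in all 3 pairs, against 31.8% of all events. In 27 of the 35 the shares of both mice numbered 1 lay outside the range of the other 4 mice. This count was not made over all events, so whether it is particular to the 10 genes was not tested. Without the mice numbered 1, the groups did not overlap in 20 of the 35 (57.1%), against 43.7% of all events. The 3 events without overlap over all 6 mice were in Epn2, Picalm and Dnm1.

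**Figure D3:**
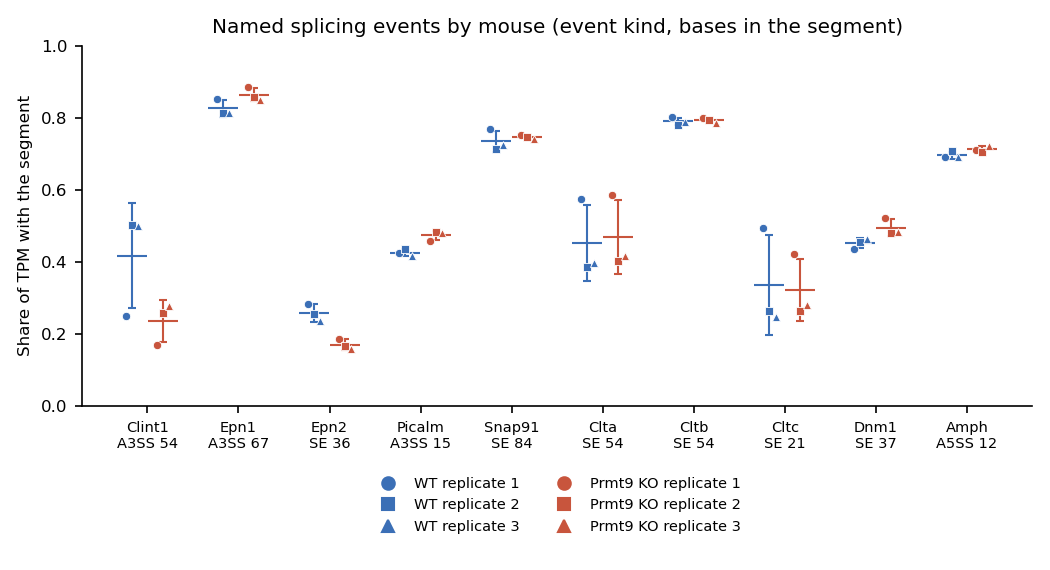
Share of TPM with the segment for the event of each gene with the smallest limma p, which include the 3 events without overlap; labels give the event kind and the bases in the segment, points are mice, horizontal bars means and error bars the SD of 3 mice. KO mice lie below WT mice for the Epn2 36-base exon and above them for the Picalm 15-base and Dnm1 37-base segments, whereas WT replicate 1 falls among the KO mice for Clint1.

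The 36-base exon of Epn2, whose sequence is given above, was included less in every KO mouse than in every WT mouse. Its share was 0.284, 0.256 and 0.235 in WT and 0.187, 0.167 and 0.158 in KO, with means of 0.258 ± 0.025 and 0.171 ± 0.015 (SD, n = 3, exact two-sided permutation test, p = 0.1, the smallest that 3 mice against 3 can give). In limma's test the log2 of the inclusion ratio differed by −0.76 (SE 0.19), with an unadjusted p of 0.00698 and an adjusted p of 1. The shares of the groups did not overlap with estimated counts either, and both mice numbered 1 lay with their own genotype. The exon leaves the reading frame intact.

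The transcript that carried this difference was Epn2-201, a protein-coding transcript of 595 codons. It had 14.9, 13.5 and 13.1 TPM in WT and 6.85, 7.05 and 6.27 in KO, so that the KO mean was 48.5% of the WT mean. Its log2 fold change was −1.14 (SE 0.23, edgeR quasi-likelihood test, unadjusted p = 0.0025, adjusted p = 1). Over the other settings its adjusted p ran from 0.0358, in the DESeq2 Wald test, to 1. Epn2-204, which is 36 bases shorter, is the most abundant Epn2 transcript and had 21.4, 40.7 and 40.2 TPM in WT and 32.8, 44.9 and 46.8 in KO. Taken against Epn2-204 alone, a ratio chosen after the values were seen, the share of Epn2-201 was 0.412, 0.249 and 0.246 in WT and 0.173, 0.136 and 0.118 in KO. The second most abundant, Epn2-213, had 16.2, 20.8 and 19.98 TPM in WT and 17.3, 19.8 and 17.1 in KO. The other including transcripts were Epn2-212, at 0 in every mouse, and Epn2-211, an incomplete annotation with 2.84, 16.1 and 13.1 TPM in WT and 6.38, 10.3 and 9.68 in KO, which did not separate the groups.

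The usage test gave Epn2 different results by setting. Its adjusted p was 1 over all 6 mice, 0.0211 with the replicate block, 3.81e-04 with a term for the mice numbered 1 and 1.04e-06 without these mice. At the limit of 0.01, the last 2 settings called 0.384% and 1.83% of all genes. The other 4 Epn2 events that passed the limits, cassette exons of 35, 70, 73 and 171 bases, had overlapping shares, and the gene total differed by a log2 fold change of −0.09 (SE 0.12).

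For Clint1, the A3SS choice was set by 2 coding transcripts. Clint1-201, without the 54-base segment and with 623 codons, had 15.01, 14.7 and 14.2 TPM in WT and 18.7, 20.9 and 19.8 in KO, and the groups did not overlap (log2 fold change 0.35, SE 0.19, edgeR quasi-likelihood test, unadjusted p = 0.111). Clint1-202, with the segment and 641 codons, had 4.97, 14.9 and 14.1 TPM in WT and 3.86, 7.25 and 7.66 in KO (log2 fold change −0.87, SE 0.35, edgeR quasi-likelihood test, unadjusted p = 0.0468, adjusted p = 1). Clint1-201 varied little among WT mice, and the low share of WT replicate 1 came from Clint1-202. Without WT replicate 1 the log2 fold change of Clint1-201 was 0.55. The gene total, in which both are summed, differed by a log2 fold change of −0.06 (SE 0.10).

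The share of the 54-base segment was 0.249, 0.504 and 0.499 in WT and 0.171, 0.258 and 0.279 in KO, with overlap through WT replicate 1 (limma, unadjusted p = 0.0537, adjusted p = 1). The exact two-sided permutation test of this share gave p = 0.3. Within each pair of mice numbered alike the KO mouse had the lower share. The unadjusted p was 0.00596 with the replicate block and 0.00154 without WT replicate 1, settings in which 5.15% and 6.9% of all events had an unadjusted p below 0.05. Usage of Clint1 had an adjusted p of 0.857 with the block and 0.154 with a term for the mice numbered 1. Its adjusted usage p was 0.0564 without WT replicate 1 and 8.82e-05 without both mice numbered 1. These last 2 settings called 1.03% and 1.83% of all genes. The study's Clint1 primer pair spans this choice and would give a 491-base product from Clint1-202, a 437-base product from Clint1-201 and a 1863-base product from the noncoding Clint1-203. Among these transcripts, the share of Clint1-202 was 0.404 ± 0.143 in WT and 0.228 ± 0.055 in KO (SD, n = 3, exact two-sided permutation test, p = 0.3).
Clint1 forward primer: caacaagtgggaatggtgac
Clint1 reverse primer: ctgttgttgaatcattgtattaagc

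The bases just before the downstream 3′ splice site of this choice can be read from the mRNA, because the segment precedes that site. The Clint1 segment ends in AG, as did 99.7% of 3282 A3SS segments of at least 3 bases in all genes that passed the limits. Pyrimidines made up 75% of the 20 bases before this AG, against a median of 70% in the 1787 segments of at least 22 bases. These letters are a description, and intron sequence upstream was not used here.

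**Figure D4:**
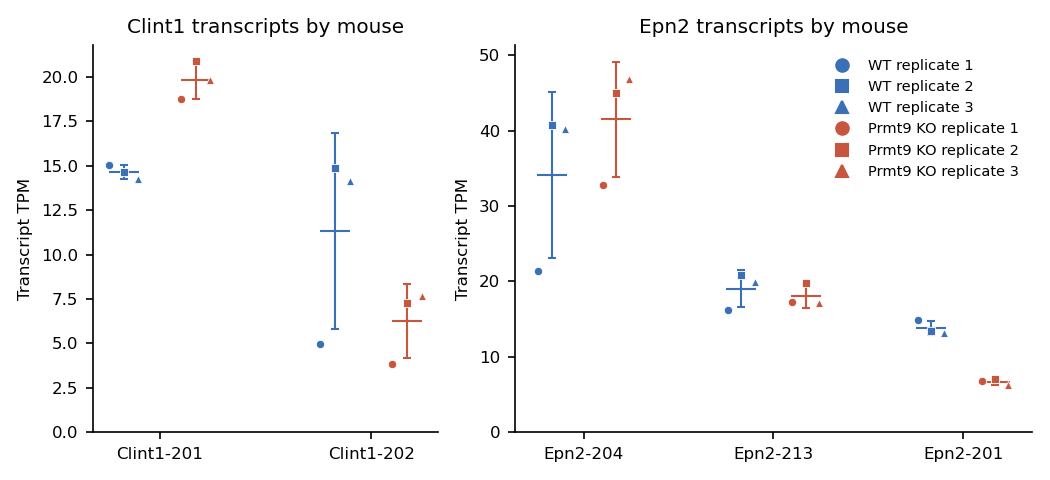
TPM of the coding transcripts of Clint1 and of 3 Epn2 transcripts in each mouse; points are mice, horizontal bars means and error bars the SD of 3 mice. Clint1-201 is higher and Epn2-201 lower in all KO mice, whereas WT replicate 1 lies with the KO mice for Clint1-202.

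In the ANTH adaptors, the 15-base segments printed above were followed in both paralogs. The Picalm segment had a share of 0.424, 0.436 and 0.417 in WT and 0.459, 0.482 and 0.480 in KO, so the groups did not overlap and every KO mouse was higher. The means were 0.426 ± 0.010 and 0.474 ± 0.013 (SD, n = 3, exact two-sided permutation test, p = 0.1), and limma gave an unadjusted p of 0.101 and an adjusted p of 1. The Snap91 segment had a share of 0.753, 0.671 and 0.686 in WT and 0.720, 0.701 and 0.694 in KO, with overlap and a limma p of 0.977. The Snap91 event with the smallest p was an 84-base cassette exon (0.768, 0.712 and 0.723 in WT and 0.751, 0.747 and 0.740 in KO, limma, unadjusted p = 0.671). Whether the KO effect differs between the paralogs was not tested.

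Picalm had 9 transcripts at 1 TPM or more with no dominant form. Picalm-202, the most abundant, lacks the 15-base segment and had 19.1, 17.3 and 18.7 TPM in WT and 30.03, 20.4 and 21.2 in KO. The next, Picalm-209, carries the segment and had 12.5, 14.3 and 15.5 in WT and 18.6, 15.99 and 15.9 in KO. Picalm-213, which carries the 15-base segment, had 7.68, 13.4 and 11.8 TPM in WT and 13.7, 15.7 and 15.6 in KO (log2 fold change 0.41, SE 0.13, edgeR quasi-likelihood test, unadjusted p = 0.0189, adjusted p = 1). In all 3 transcripts every KO mouse was above every WT mouse. KO replicate 1 carried much of the difference in the first 2, since without it the log2 fold change went from 0.31 to 0.0040 for Picalm-202 and from 0.20 to 0.026 for Picalm-209. Without WT replicate 1 that of Picalm-202 was 0.53, and it was 0.20 without WT replicate 2. Picalm-201, which lacks the segment and includes a 24-base cassette exon, had 10.4, 16.1 and 17.3 TPM in WT and 8.53, 12.7 and 9.72 in KO (log2 fold change −0.55, SE 0.16, edgeR quasi-likelihood test, unadjusted p = 0.0129, adjusted p = 1). The share of that 24-base exon was 0.290, 0.357 and 0.361 in WT and 0.220, 0.313 and 0.299 in KO, lower in the KO mouse of all 3 pairs but with overlap between the groups. In Snap91, Snap91-202 (103 to 113 TPM in WT and 94.1 to 132 in KO) and Snap91-201 (32.7 to 40.5 and 31.7 to 41.8) overlapped.

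The neuronal exons of the light chains did not separate the genotypes. The Clta 54-base exon had a share of 0.771, 0.681 and 0.694 in WT and 0.790, 0.692 and 0.687 in KO, or 0.715 ± 0.048 and 0.723 ± 0.058 (SD, n = 3, exact two-sided permutation test, p = 0.7). The Clta 36-base exon had a share of 0.566, 0.667 and 0.670 in WT and 0.608, 0.665 and 0.643 in KO, or 0.634 ± 0.059 and 0.639 ± 0.029 (SD, n = 3, exact two-sided permutation test, p = 1). Both mice numbered 1 had the highest share of the longer exon and the lowest share of the shorter. The Cltb 54-base exon was steadier, at 0.801, 0.780 and 0.787 in WT and 0.798, 0.792 and 0.785 in KO (exact two-sided permutation test, p = 0.8).

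Taken by combination, most Clta RNA had both neuronal exons (Clta-205), with a share of 0.521, 0.553 and 0.563 in WT and 0.560, 0.557 and 0.539 in KO. The longer exon alone (Clta-204) had 0.249 in WT replicate 1 and 0.230 in KO replicate 1, against 0.128 to 0.149 in the other mice. The shorter exon alone (Clta-203) had 0.045 and 0.047 in these mice, against 0.105 to 0.115 in the others. Transcripts with neither exon ranged from 0.162 to 0.208. The mice numbered 1 are those with the low neuronal and oligodendrocyte markers given above, and the part of cell composition in these shares was not tested. Among the 5 Clta events that passed, the smallest limma p, 0.826, was that of the 54-base exon in transcripts without the shorter exon (0.575, 0.386 and 0.398 in WT and 0.586, 0.404 and 0.417 in KO). In TPM, Clta-205 had 148 to 196 in WT and 141 to 191 in KO, Clta-204 had 34.4 to 93.9 and 37.2 to 78.4, Cltb-201, with the neuronal exon, had 169 to 223 and 170 to 224, and Cltb-202, without it, had 45.8 to 55.5 and 45.8 to 56.5.

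**Figure D5:**
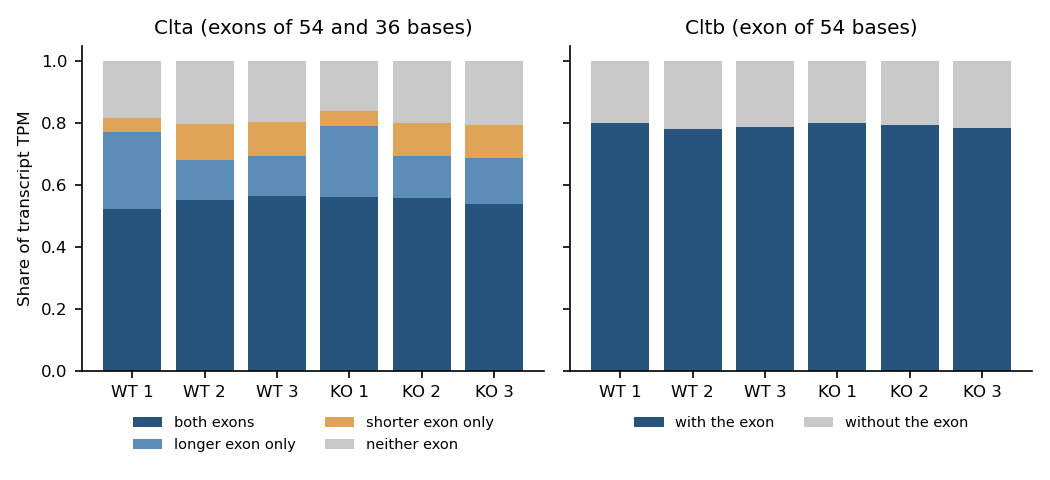
Share of Clta transcript TPM with both, either or neither of the 54-base and 36-base exons (left) and of Cltb transcript TPM with and without its 54-base exon (right), 1 bar per mouse. About the same part of Clta has both exons in all mice (0.521 to 0.563), while the longer exon alone takes 0.249 and 0.230 in the mice numbered 1 and 0.128 to 0.149 in the others.

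In the heavy chain gene, Cltc-201 had 60.8, 71.6 and 75.6 TPM in WT and 85.7, 72.9 and 67.0 in KO, and Cltc-203, an incomplete annotation of the 3′ part, had 90.3, 54.3 and 51.0 in WT and 98.6, 53.9 and 53.7 in KO. The Cltc event with the smallest p, a 21-base cassette exon present only in Cltc-203, had a share of 0.495, 0.263 and 0.248 in WT and 0.422, 0.264 and 0.281 in KO (limma, unadjusted p = 0.912). This share sets Cltc-203, of 898 bases, against Cltc-201 and Cltc-202, of 6163 and 6519 bases. With estimated counts the mean shares were only 0.060 in WT and 0.055 in KO, so the TPM share is no measure of how much Cltc RNA has the exon. A 12-base A5SS segment in the same gene had 0.659, 0.472 and 0.489 in WT and 0.635, 0.486 and 0.487 in KO. In both, the mice numbered 1 were high in either genotype and the other 4 mice lay together.

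In Dnm1, the 37-base exon had a share of 0.437, 0.455 and 0.464 in WT and 0.521, 0.480 and 0.484 in KO. Every KO mouse was above every WT mouse, with means of 0.452 ± 0.014 and 0.495 ± 0.023 (SD, n = 3, exact two-sided permutation test, p = 0.1), and limma gave an unadjusted p of 0.156 and an adjusted p of 1. The transcripts with the exon include Dnm1-206, annotated as a target of nonsense-mediated decay, which had 51.9, 61.1 and 54.4 TPM in WT and 53.5, 67.4 and 81.1 in KO. Among protein-coding transcripts alone, an alternative added after the values were seen, the share was 0.319, 0.388 and 0.403 in WT and 0.421, 0.407 and 0.392 in KO, and the groups overlapped (exact two-sided permutation test, p = 0.2). The separation thus rests on Dnm1-206. The most abundant transcripts, Dnm1-201 (79.4, 193 and 196 TPM in WT and 97.5, 194 and 178 in KO) and Dnm1-214 (77.7, 206 and 206 in WT and 71.3, 193 and 171 in KO), followed the low gene totals of the mice numbered 1. Dnm1-212, at 1.36 to 1.54 TPM in WT and 1.69 to 1.90 in KO, was the lowest of the transcripts without overlap (log2 fold change 0.23, SE 0.29, edgeR quasi-likelihood test, unadjusted p = 0.449), which ran from 0.12 without WT replicate 2 and 0.15 without KO replicate 1 to 0.42 without WT replicate 1. The 139-base mutually exclusive exons of the middle region had a share of 0.488, 0.332 and 0.319 in WT and 0.490, 0.335 and 0.381 in KO. The other 8 Dnm1 events that passed the limits overlapped as well.

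In Epn1, the smallest p was that of a 67-base A3SS segment in the noncoding 5′ part, with a share of 0.853, 0.812 and 0.812 in WT and 0.885, 0.857 and 0.849 in KO (limma, unadjusted p = 0.137). It was higher in the KO mouse of all 3 pairs, and the groups overlapped through WT replicate 1. With estimated counts the means were 0.961 in WT and 0.970 in KO, and the difference fell to 0.00945. A tandem acceptor that adds 3 coding bases to Epn1 had a share of 0.576, 0.508 and 0.507 in WT and 0.526, 0.503 and 0.506 in KO. Epn1-207 had 154 to 176 TPM in WT and 138 to 173 in KO, and Epn1-202 had 113 to 169 and 123 to 166.

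In Amph, the only event, a 12-base A5SS segment, had a share of 0.691, 0.707 and 0.690 in WT and 0.711, 0.705 and 0.721 in KO, with overlap (limma, unadjusted p = 0.501). Amph-204 had 109 to 117 TPM in WT and 108 to 132 in KO, and Amph-201 had 35.6 to 41.3 and 34.7 to 48.0. Amph-202, a transcript with no annotated reading frame, was lower in every KO mouse, at 13.2, 10.6 and 9.38 TPM in WT and 5.59, 5.93 and 7.18 in KO (log2 fold change −0.93, SE 0.30, edgeR quasi-likelihood test, unadjusted p = 0.0194, adjusted p = 1). Without WT replicate 1 the log2 fold change of Amph-202 was −0.59. It made up a small part of Amph RNA, and the gene total differed by a log2 fold change of −0.0027 (SE 0.16).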

How the data were processed

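RNA libraries from 6 hippocampi were prepared with a stranded poly(A) kit and sequenced with paired-end reads. The authors deposited, for each sample, the estimated count and the TPM of each transcript from kallisto, and a table of TPM summed over genes. The submitters' processing notes name kallisto 0.46.0 and STAR 2.7.1a with GRCm38. Of 118783 transcripts, 116515 matched GENCODE M21 by identifier, all with the same length. Junction reads were not used here, so shares rest on kallisto's division of reads among annotated transcripts and unannotated sites have no value.

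Rounded estimated counts were tested with the quasi-likelihood test of edgeR 4.0.16 (TMM, default filter on low counts) for genes and transcripts and with diffSpliceDGE for usage. Events were tested with limma 3.58.1 on log2 ratios after adding 0.1 TPM. The p-values of these tests were adjusted over all features by Benjamini-Hochberg. Alternatives included DESeq2 1.42.0, other filters and pseudocounts, limma on log2(TPM + 1), a replicate block and leaving out mice. Single shares were compared by exact permutation, and these p-values were not adjusted. The Clint1-203 product was counted in the denominator of the primer share. R 4.3.3 and Python 3.11.15 were used. The tests were also run on simulated data in which no mouse stood apart from the rest, unlike in these data. P-values rest on 3 mice a group.

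The genotypes share replicate numbers. Deviations from the group means correlated by 0.516, 0.383 and 0.346 between mice numbered 1, 2 and 3. Mice of unlike number were not compared, and both mice numbered 1 stood apart, so these correlations cannot show whether the numbers pair the mice. Pairing by number was thus an assumption, since the labels do not say which mice were littermates. The genes and lists were chosen with earlier results of these data known. Named were all 10 genes, their 2 most abundant transcripts, the event with the smallest p, every event without overlap, and in the wider list the 3 highest, the 3 lowest and the relatives of the 10 genes. Other transcripts and events were named after their values were seen.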

Additional observations from a re-analysis of the deposited data

How the results depend on the processing

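The counts of called genes, transcripts and events stayed at 0 in every alternative run. In the usage test 1 gene (Epn2) was called with a term for the mice numbered 1. Without these mice of both groups 2 genes (Epn2 and Clint1) were called. The other alternatives called 0 of the 10 genes, leaving out any single mouse included. The 2 settings with calls leave out or absorb the mice that stood apart, and called 0.384% and 1.83% of all genes. With the replicate block, which pairs mice by number, the usage count was 0, the Clint1 product share differed by −0.176 (exact sign-flip permutation test, p = 0.25, the smallest that 3 pairs allow), and no call changed. Of 565 alternative values for 49 results, 519 kept their direction and side of the threshold, 38 changed sign and 8 passed a threshold that the reported value did not. The 8 include the usage counts as well as the Epn2 and Clint1 usage values that make them up. They also include Prmt9, the deleted gene. No call could be lost, since no reported value had passed its threshold. The changes of sign concerned genes and exons that were not called, and their cause was not tested. Leaving out 1 mouse moved the share difference of the Clta longer exon between −0.0255 and 0.0356, of the Clta shorter exon between −0.0301 and 0.0221, of the Cltb exon between −0.00215 and 0.00808, and of the Clint1 product between −0.258 and −0.133. It moved the limma event differences between −0.0423 and 0.0770 for the Clta 54-base exon, −0.00198 and 0.00812 for the Cltb exon and −0.0628 and 0.0667 for the Cltc 21-base exon. The log2 fold changes ranged from −0.23 to 0.079 for Snap91, −0.32 to 0.20 for Clta, −0.21 to 0.14 for Cltb, −0.047 to 0.083 for Cltc, −0.18 to 0.12 for Dnm1 and −0.15 to 0.10 for Amph. In limma on log2(TPM + 1) the log2 fold changes were 0.018 for Clint1, 0.028 for Snap91, 0.0051 for Cltb, 0.043 for Dnm1 and 0.029 for Amph. Without both mice numbered 1 they were 0.014 for Clta and −0.084 for Cltc, and the share differences were −0.0147 for the Clta shorter exon and 0.0168 for the Cltc exon. Amph had a log2 fold change of 0.0045 without the filter on low counts, and its 12-base segment a share difference of −0.0015 with estimated counts. With 3 mice a group no exact test of a single share can go below a p of 0.1, and kallisto's counts are estimates, so no counting interval is given for a share.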
